A study of Mus musculus with 9 samples.

Results

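The IGF axis of the growth plate was followed through 10 genes: the ligands Igf1 and Igf2, the receptors Igf1r, Igf2r and Ghr, the adaptor Irs1, and the binding proteins Igfbp2, Igfbp3, Igfbp4 and Igfbp5. They were taken by name from the 18193 genes named on the array. All 28 probe sets annotated to 1 of them and to no other gene were used, out of 34945 probe sets that name a single gene. A further probe set, shared by Igf2r and the overlapping transcript Airn, had signals of 160.4 to 393.2 and was left out of every test. All 10 genes and 27 of their 28 probe sets passed the filter on dim signals, and the remaining probe set, 1 of 5 for Igf1r, had signals of 34.7 to 149.2.

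Messenger RNA was measured with Affymetrix arrays in 3 layers of the proximal tibial growth plate of newborn (P0, day 0) wild-type Black Swiss mice. The round layer lies nearest the joint, the flat layer holds stacked columns of chondrocytes, and the hypertrophic layer borders the forming bone. Each layer was cut by hand from unfixed frozen sections, and a sample pooled 18 to 20 tibiae from a litter of 9 to 10 pups, so no single animal was measured. There were 3 arrays for each of the round, flat and hypertrophic layers, 9 in all, and arrays with the same replicate number were matched as 1 litter. All mice were untreated and of the same genotype, no sex was recorded, and no step separated chondrocytes from the cells around them.

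Insulin-like growth factors bind the tyrosine kinase receptor Igf1r, which passes the signal through adaptors such as Irs1 to the PI3 kinase and Akt pathway. Growth hormone, acting through Ghr, raises Igf1 output in the liver and in target tissues, while Igf2r takes up Igf2 and delivers it to lysosomes for breakdown. The secreted binding proteins hold IGFs in the fluid and matrix around cells and can limit or prolong their action, and proteases release the IGFs again. In the growth plate this axis is known for promoting chondrocyte growth and bone elongation.

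The arrays had median signals of 123 to 152, and their number limits the precision. The round and hypertrophic layers carried markers of their labels, and no marker of the flat layer was examined. The round marker Prg4 had signals of 13112 to 18770.4 in the round arrays and at most 706.7 elsewhere, and the hypertrophic marker Col10a1 had 11228 to 12910.4 in the hypertrophic arrays and at most 931.4 elsewhere. The round array of litter 1 stood apart in RNA integrity: the actin control probe sets gave a 3'/5' ratio of 4.25 there, against 1.45 to 2.06 on the other 8 arrays. The flat array of litter 3 stood apart in skeletal muscle signal, at 627533 summed over 18 muscle markers, against 159390 to 396856 on the other arrays. In such bulk tissue, fewer cells of a type and less RNA per cell cannot be told apart.

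Between the ends of the growth plate 6 of the 10 genes changed. In hypertrophic against round cartilage, Ghr, Igf1, Igfbp5, Igf1r and Igfbp3 fell and Irs1 rose. The 5 genes that fell were 1.46-fold to 2.72-fold lower, and Irs1 was 1.62-fold higher. In flat against round cartilage, Ghr, Igf1r, Igfbp5 and Igfbp3 fell and Irs1 rose. In hypertrophic against flat cartilage, Igf1, Igfbp2, Igfbp5, Ghr and Igf2 fell and 0 rose. Igf2r and Igfbp4 passed the threshold in no contrast.

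Differences are on the scale log2(signal + 26), fitted with limma over all 11313 genes above the filter with litter as a block, and adjusted over all of them. The threshold was an adjusted p of 0.05. Flat minus round, 1 of 10 genes was higher and 4 were lower, where 8.39% of all tested genes were higher and 8.64% lower. Hypertrophic minus flat, 0 were higher and 5 lower, beside 6.12% higher and 5.22% lower among all genes. Hypertrophic minus round, 1 was higher and 5 lower, beside 12.4% and 12.7%. At an unadjusted p under 0.05, 5, 7 and 9 of the 10 genes passed in these 3 contrasts, in the same order, and all 7 were lower. The share of all genes at that p was not counted. By the F test over the 3 layers 8 of the 10 passed, and 28.4% of all genes did.

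The median difference of the 10 genes was -0.14 flat minus round, -0.41 hypertrophic minus flat and, over both steps, -0.59 hypertrophic minus round. Over all genes these medians were -0.01, 0 and 0.01. The 2 layers did not overlap for 4, 7 and 8 of the 10 genes in these contrasts, where 25.3%, 22.7% and 36.5% of all tested genes did not overlap. Centring each array on its median instead moved the share of called genes that were higher, hypertrophic minus flat, to 65.2%, beside 53.9%, and left the 5 member calls lower. Igf1r, Ghr, Igfbp3 and Igfbp5 were highest in the round layer, with both contrasts of that layer past the threshold, as 6.05% of tested genes were. Igf1, Ghr and Igfbp5 were lowest in the hypertrophic layer (2.78% of tested genes), and Irs1 was lowest in the round layer (4.80%).

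**Figure D1:**
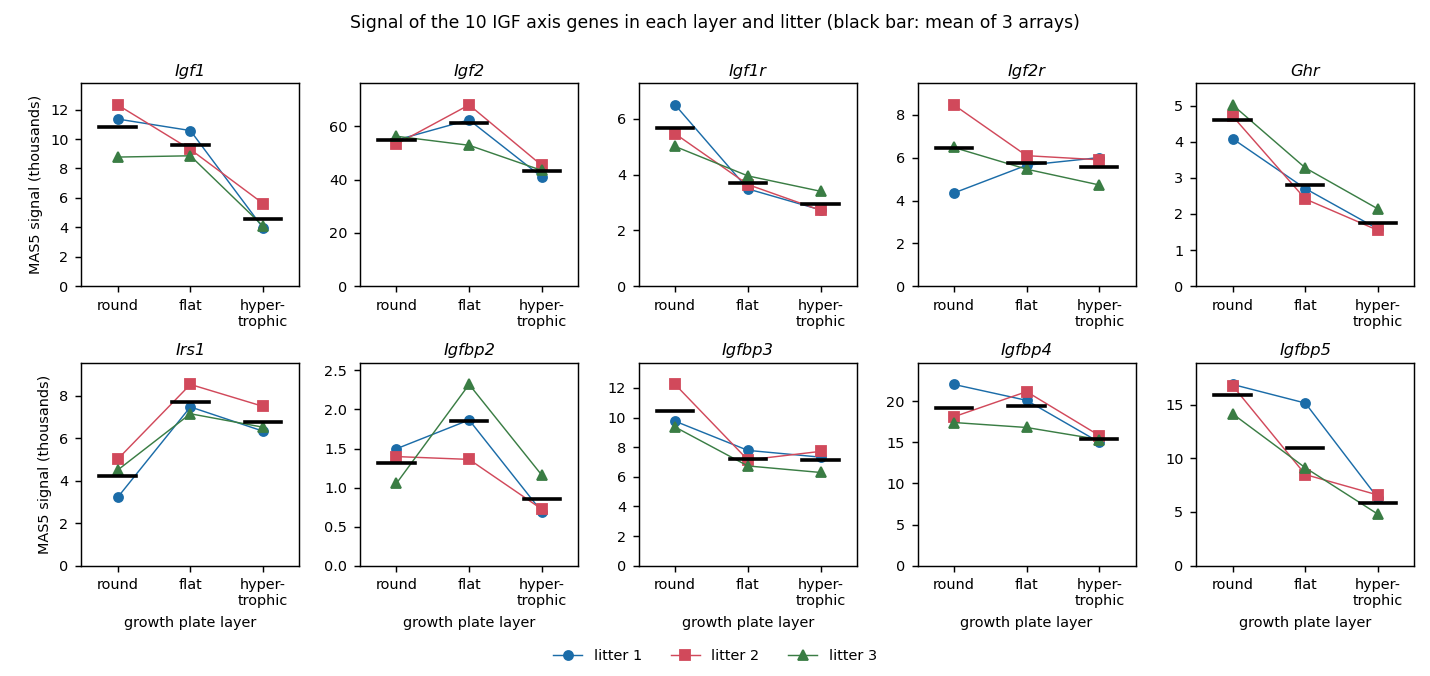
MAS5 signal divided by 1000 (vertical axis, linear, from 0) of the probe set chosen for each of the 10 genes in the round, flat and hypertrophic layers. Points and lines show litters 1 to 3 and black bars the mean of 3 arrays. Igf1, Igf2, Igf1r, Ghr, Igfbp4 and Igfbp5 have all 3 hypertrophic arrays below every other array, and Irs1 has all 3 round arrays below every other array.

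The sequences around 4 gene starts are given: those of Igf1, Ghr and Igfbp5, which were lowest in the hypertrophic layer, and of Irs1, which was lowest in the round layer. Each run holds 250 bases before and 50 bases after a RefSeq gene start on GRCm38.p6, 5′ to 3′ on the strand of the gene. They lie at chr10:87860861-87861160 (plus strand) for Igf1, chr15:3583303-3583602 (minus strand) for Ghr, chr1:82291390-82291689 (minus strand) for Irs1 and chr1:72874816-72875115 (minus strand) for Igfbp5. Capitals mark every match, on either strand, to the 8 motifs listed after the sequences.
Igf1: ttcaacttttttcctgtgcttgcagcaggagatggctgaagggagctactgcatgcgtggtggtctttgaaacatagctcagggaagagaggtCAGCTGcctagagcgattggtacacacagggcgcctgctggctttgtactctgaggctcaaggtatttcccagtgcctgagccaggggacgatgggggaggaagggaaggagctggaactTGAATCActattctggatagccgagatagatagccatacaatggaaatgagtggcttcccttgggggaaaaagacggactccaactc
Ghr: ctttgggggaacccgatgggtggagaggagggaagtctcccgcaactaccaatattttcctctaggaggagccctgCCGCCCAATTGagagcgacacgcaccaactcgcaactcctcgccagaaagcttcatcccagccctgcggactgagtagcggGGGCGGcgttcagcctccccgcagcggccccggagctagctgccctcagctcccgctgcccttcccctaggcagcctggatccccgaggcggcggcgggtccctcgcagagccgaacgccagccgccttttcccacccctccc
Irs1: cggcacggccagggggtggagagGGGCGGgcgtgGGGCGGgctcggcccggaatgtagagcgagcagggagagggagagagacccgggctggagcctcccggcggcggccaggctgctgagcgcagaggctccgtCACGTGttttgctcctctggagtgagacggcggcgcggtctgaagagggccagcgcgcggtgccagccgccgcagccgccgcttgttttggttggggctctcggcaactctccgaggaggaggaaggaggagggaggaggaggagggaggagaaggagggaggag
Igfbp5: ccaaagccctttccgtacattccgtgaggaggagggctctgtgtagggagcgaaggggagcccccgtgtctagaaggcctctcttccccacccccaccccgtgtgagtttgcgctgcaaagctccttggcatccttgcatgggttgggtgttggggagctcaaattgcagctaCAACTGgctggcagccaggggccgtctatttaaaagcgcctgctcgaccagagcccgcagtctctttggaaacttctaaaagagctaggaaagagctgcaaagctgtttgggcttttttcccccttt

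The motifs searched, on both strands, were the TATA box TATAAA, the STAT site TTCNNNGAA, the Runx site TGTGGT, the AP-1 site TGANTCA, the E-box CANNTG, the GC box GGGCGG, the hypoxia response core ACGTG and the FOXO site GTAAACA. Among all 32851 promoter windows of this length, 13.6% held the TATA box, 8.3% the STAT site, 16.8% the Runx site, 7.8% the AP-1 site, 72.3% the E-box, 35.7% the GC box, 19.6% the hypoxia core and 3.6% the FOXO site. The Igf1 window held the E-box CAGCTG and the AP-1 match TGAATCA, which begins 37 bases before the start. The Ghr window held 2 GC boxes and the E-box CAATTG, and its first GC box, read on the other strand, shares a base with that E-box. The Irs1 window held 2 GC boxes and CACGTG, an E-box that contains the hypoxia core on both strands. The Igfbp5 window held only the E-box CAACTG. Ghr has 2 windows and Igf1 further starts. The Ghr window that is not shown, chr15:3581793-3582092, held a TATA box on the other strand, TTTATA, and the AP-1 match TGAATCA. That AP-1 match begins 34 bases before its start. Letters that match a motif are a description and not a site of binding.

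The windows also differed in base composition. GC content was 52.3% for Igf1, 67.0% for the Ghr window shown, 71.3% for Irs1 and 56.3% for Igfbp5, beside a median of 52.7% over all windows. The Ghr window that is not shown had 52.3%. All 10 genes had at least 1 window, 15 in all. The genes themselves are spread over the genome. Igfbp2 (chr1:72824480-72852474, plus strand) and Igfbp5 (chr1:72858065-72874865, minus strand) are neighbours that end toward each other.

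Igf1, the ligand that growth hormone induces, had signals of 11360.0, 12322 and 8774 in the round arrays of litters 1, 2 and 3, 10576, 9295 and 8861 in the flat arrays, and 3949, 5616 and 4082 in the hypertrophic arrays. Round and flat arrays overlapped, and every hypertrophic array lay below both. Igf1 was 2.12-fold lower in hypertrophic than in flat cartilage (log2 -1.08 ± 0.14, SE, adjusted p = 0.000431) and 2.38-fold lower than in round cartilage (-1.25 ± 0.14, adjusted p = 3.7e-05). Flat against round gave -0.16 ± 0.14 (adjusted p = 0.471). Its other 3 probe sets also fell, by 1.22 to 1.27 on the log2 scale hypertrophic minus flat and by 1.08 to 1.23 hypertrophic minus round. The fall was present in all 3 litters, at -1.42, -0.72 and -1.11 hypertrophic minus flat.

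Igf2, the fetal growth factor that is expressed from the paternal allele, had signals of 54801.5, 53291 and 56238 in the round arrays, 62389.8, 68008 and 52851 in the flat arrays, and 40968, 45293 and 43410.0 in the hypertrophic arrays. The hypertrophic arrays lay below all others, and round and flat overlapped. It was 1.41-fold lower in hypertrophic than in flat cartilage (log2 -0.49 ± 0.12, adjusted p = 0.0228). Hypertrophic minus round was -0.34 ± 0.12 (adjusted p = 0.0627) and flat minus round 0.15 ± 0.12 (adjusted p = 0.461). The call against flat cartilage was lost without the litter block (adjusted p = 0.0578), with quantile normalization (-0.29, adjusted p = 0.068), with no filter on dim genes (0.153), without the variance trend (0.0762) and when the flat array of litter 1 or 2 or any of the hypertrophic arrays was left out (-0.54 to -0.42, adjusted p 0.0833 to 0.14).

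The second Igf2 probe set showed a larger difference. Its signals were 1507, 4527.5 and 4019.7 in the round arrays, 5017, 3410.2 and 4479.9 in the flat arrays, and 1519.9, 1788 and 1748.5 in the hypertrophic arrays. Hypertrophic minus flat was -1.32 ± 0.29 (adjusted p = 0.0158). The round array of litter 1 was at 0.353 of the mean of the other round arrays for this probe set, beside 1.001 for the probe set chosen for the gene. Hypertrophic minus round was -0.83 ± 0.29 (adjusted p = 0.0619) with that array and -1.35 (adjusted p = 0.00017) without it.

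Among the receptors, the probe set chosen for Ghr had the steadiest gradient. Ghr, the growth hormone receptor, had signals of 4088, 4713 and 5025 in the round arrays, 2705, 2416 and 3278 in the flat arrays, and 1582, 1546 and 2139 in the hypertrophic arrays. No array of a layer overlapped with those of the next in this probe set, which represents Ghr. It was 1.65-fold lower in flat than in round cartilage (log2 -0.72 ± 0.13, adjusted p = 0.00173), 1.59-fold lower in hypertrophic than in flat (-0.67 ± 0.13, adjusted p = 0.00483) and 2.62-fold lower in hypertrophic than in round (-1.39 ± 0.13, adjusted p = 6.27e-06). Each of these calls was kept when any 1 array was left out. With the log2 values of its 3 probe sets averaged, the stepwise differences were -0.53 (adjusted p = 0.0581) and -0.39 (adjusted p = 0.197), and hypertrophic minus round still passed. A further Ghr probe set gave -0.59 ± 0.19 (adjusted p = 0.0562) and -0.18 ± 0.19 (adjusted p = 0.657) for these steps. It passed hypertrophic minus round (-0.77 ± 0.19, adjusted p = 0.0113). The dimmest Ghr probe set passed in no contrast, at -0.29, -0.33 and -0.62 (adjusted p 0.164 to 0.601).

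Igf1r, the signalling receptor for both ligands, had signals of 6495, 5461 and 5005 in the round arrays, 3484, 3641 and 3951 in the flat arrays, and 2732, 2718 and 3399 in the hypertrophic arrays. All 3 layers were separate from each other. It was 1.52-fold lower in flat than in round cartilage (log2 -0.60 ± 0.14, adjusted p = 0.0105) and 1.91-fold lower in hypertrophic than in round (-0.93 ± 0.14, adjusted p = 0.000399). Hypertrophic minus flat was -0.33 ± 0.14 (adjusted p = 0.17). The flat against round call was lost without the round array of litter 2 (-0.59, adjusted p = 0.0544) or the flat array of litter 1 (-0.54, adjusted p = 0.0721). It was lost too without the pair of arrays that stood apart, round of litter 1 and flat of litter 3 (-0.46, adjusted p = 0.0535).

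The probe sets of Igf1r disagreed in size. The other 3 above the filter gave flat minus round differences of -0.04 ± 0.16, -0.13 ± 0.16 and 0.18 ± 0.24 (adjusted p 0.653 to 0.902). Hypertrophic minus round they gave -0.18, -0.44 and -0.71 (adjusted p 0.0581 to 0.46). The mean of all its probe sets differed by -0.15 flat minus round (adjusted p = 0.567), so the fall in the flat layer rests on 1 probe set.

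Igf2r, the clearance receptor for Igf2, had signals of 4352, 8469 and 6478 in the round arrays, 5649, 6096 and 5464.5 in the flat arrays, and 6006, 5904 and 4727 in the hypertrophic arrays. The layers overlapped, and the lowest and the highest value were both round arrays. Flat minus round was -0.11 ± 0.17 (adjusted p = 0.712) and hypertrophic minus round -0.17 ± 0.17 (adjusted p = 0.522). Without the round array of litter 1, Igf2r passed in both contrasts, at -0.39 (adjusted p = 0.0416) and -0.45 (adjusted p = 0.0168). That array was at 0.582 of the mean of the other round arrays. The part of its RNA integrity in this was not tested.

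Irs1, the docking protein that links Igf1r and the insulin receptor to PI3 kinase, ran the other way. Its signals were 3212, 5006 and 4494 in the round arrays, 7465, 8524 and 7143 in the flat arrays, and 6324, 7491 and 6511 in the hypertrophic arrays. Every flat and hypertrophic array was above every round array, and flat and hypertrophic overlapped. Irs1 was 1.84-fold higher in flat than in round cartilage (log2 0.88 ± 0.13, adjusted p = 0.000554) and 1.62-fold higher in hypertrophic than in round (0.69 ± 0.13, adjusted p = 0.00186). Hypertrophic minus flat was -0.19 ± 0.13 (adjusted p = 0.431). Without the round array of litter 1, the lowest of the 9, the first 2 differences were 0.73 and 0.54 and still passed. Irs1 has a single probe set on the array.

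Igfbp5, a binding protein that also binds matrix, had signals of 16879.5, 16764 and 14140.4 in the round arrays, 15142, 8483 and 9116 in the flat arrays, and 6278, 6573 and 4786 in the hypertrophic arrays. The flat array of litter 1 lay among the round arrays, while all hypertrophic arrays lay below the rest. Hypertrophic against round gave the largest fold of the 10 genes, 2.72-fold lower (log2 -1.44 ± 0.16, adjusted p = 3.41e-05). It was 1.81-fold lower in hypertrophic than in flat (-0.85 ± 0.16, adjusted p = 0.00472) and 1.5-fold lower in flat than in round (-0.59 ± 0.16, adjusted p = 0.0239). The flat against round call was lost without the litter block (adjusted p = 0.114), without the variance trend (0.0811), with the mean of both probe sets (-0.39, adjusted p = 0.307) and without the round array of litter 2 (-0.52) or 3 (-0.55) or the flat array of litter 2 (-0.37) or 3 (-0.60), with adjusted p of 0.0629 to 0.128. With that mean, hypertrophic minus flat was lost too (-0.65, adjusted p = 0.113). The second, dimmer probe set did not pass (hypertrophic minus round -0.64 ± 0.32, adjusted p = 0.187), and without the round array of litter 1 it gave -1.09 (adjusted p = 0.0149).

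Igfbp3, the main IGF carrier of blood, had signals of 9757, 12242 and 9361 in the round arrays, 7787, 7141 and 6736 in the flat arrays, and 7329, 7719 and 6294 in the hypertrophic arrays. The round arrays were above all others, and flat and hypertrophic overlapped. It was 1.44-fold lower in flat than in round (log2 -0.52 ± 0.12, adjusted p = 0.00957) and 1.46-fold lower in hypertrophic than in round (-0.55 ± 0.12, adjusted p = 0.00512). Hypertrophic minus flat was -0.02 ± 0.12 (adjusted p = 0.935). The flat against round call was lost without the round array of litter 2 (-0.43, adjusted p = 0.0749) or the flat array of litter 2 (-0.43, adjusted p = 0.0545). Its second probe set gave -0.45 ± 0.18 (adjusted p = 0.12) and -0.56 ± 0.18 (adjusted p = 0.0428) for the same contrasts with round.

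Igfbp2, another secreted binding protein, had signals of 1497, 1397 and 1052.5 in the round arrays, 1866, 1361 and 2321 in the flat arrays, and 689.7, 723.2 and 1159 in the hypertrophic arrays. All hypertrophic arrays lay below all flat arrays, but the hypertrophic array of litter 3 was above a round one. Igfbp2 was 2.13-fold lower in hypertrophic than in flat cartilage (log2 -1.09 ± 0.22, adjusted p = 0.00692). Hypertrophic minus round was -0.63 ± 0.22 (adjusted p = 0.0541) and flat minus round 0.47 ± 0.22 (adjusted p = 0.174). The call was lost without the hypertrophic array of litter 1 (-0.90, adjusted p = 0.058). Hypertrophic minus round passed without the round array of litter 3 (-0.98, adjusted p = 0.0013) or the hypertrophic array of litter 3 (-0.84, adjusted p = 0.0346).

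Igfbp4, which PAPP-A cleaves to free IGFs, had signals of 22030.0, 18096 and 17399.8 in the round arrays, 20092.5, 21151.5 and 16795 in the flat arrays, and 14998, 15814 and 15333 in the hypertrophic arrays. The hypertrophic arrays were below all others, yet the differences were small: -0.32 ± 0.12 hypertrophic minus flat (adjusted p = 0.121) and -0.31 ± 0.12 hypertrophic minus round (adjusted p = 0.0876). Flat minus round was 0.01 ± 0.12 (adjusted p = 0.956). Of its 6 probe sets, 2 passed hypertrophic minus round, at -0.47 (adjusted p = 0.0137) and -0.44 (adjusted p = 0.0289).

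**Figure D2:**
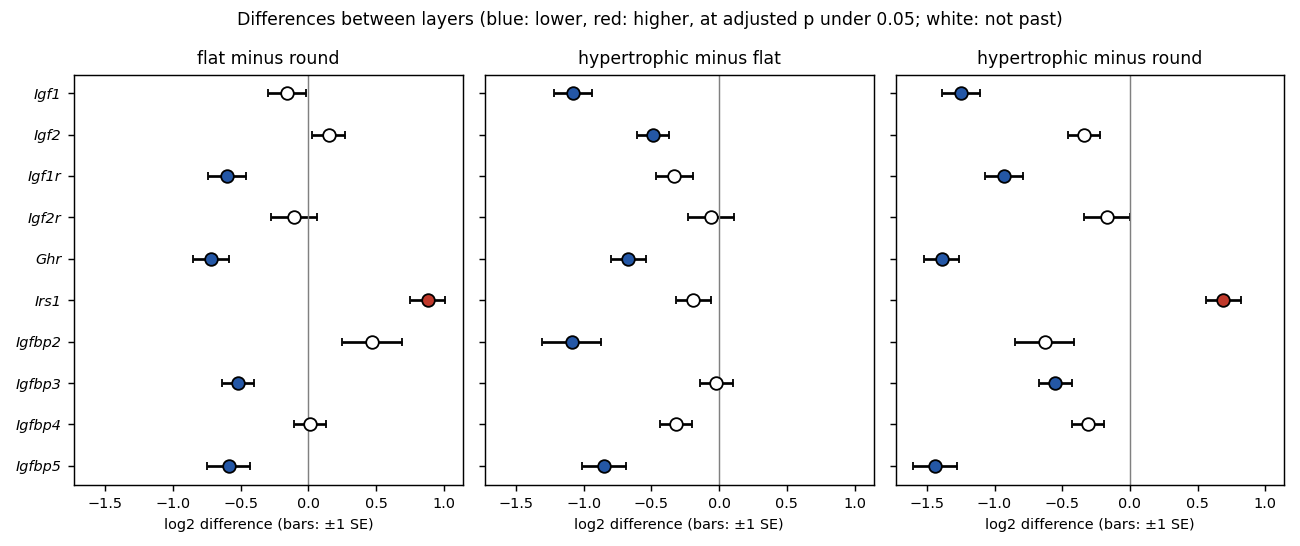
Log2 differences (horizontal axis) of the 10 genes between layers, each point the limma estimate and each bar ±1 SE. Blue points were lower and red points higher at an adjusted p under 0.05, and white points did not pass. Irs1 is the only gene of the 10 with a red point, at 0.88 flat minus round and 0.69 hypertrophic minus round.

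Across all probe sets of the members the direction was more uniform than the calls in the contrasts with the hypertrophic layer. Hypertrophic minus flat, 27 of the 27 probe sets above the filter were below 0 (25 with arrays centred on their medians and 27 with quantile normalization, a comparison chosen after the data were seen), and 10 of them passed as lower, where 3.73% of all 19624 fitted probe sets were lower. Hypertrophic minus round, 26 were below 0 and 12 passed as lower, beside 10.6%. Flat minus round, 17 were below 0 and 4 passed as lower, beside 6.55%. The share of all fitted probe sets below 0 was not counted. The medians over all tested genes were 0 hypertrophic minus flat, 0.01 hypertrophic minus round and -0.01 flat minus round. Probe sets of 1 gene read the same RNA and are not replicates.

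The round array of litter 1 was set against the other round arrays for each probe set. It was below both other round arrays in 15 of the 28 and above both in 8, beside 41.8% and 37.7% of all 19624 fitted probe sets. Among the 18 probe sets that were not chosen to represent a gene it was below both in 12, and among the 10 chosen it was below both in 3. Without it, 17 probe sets passed as lower hypertrophic minus round, beside 10.8% of all fitted probe sets, and 6 flat minus round, beside 6.84%.

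**Figure D3:**
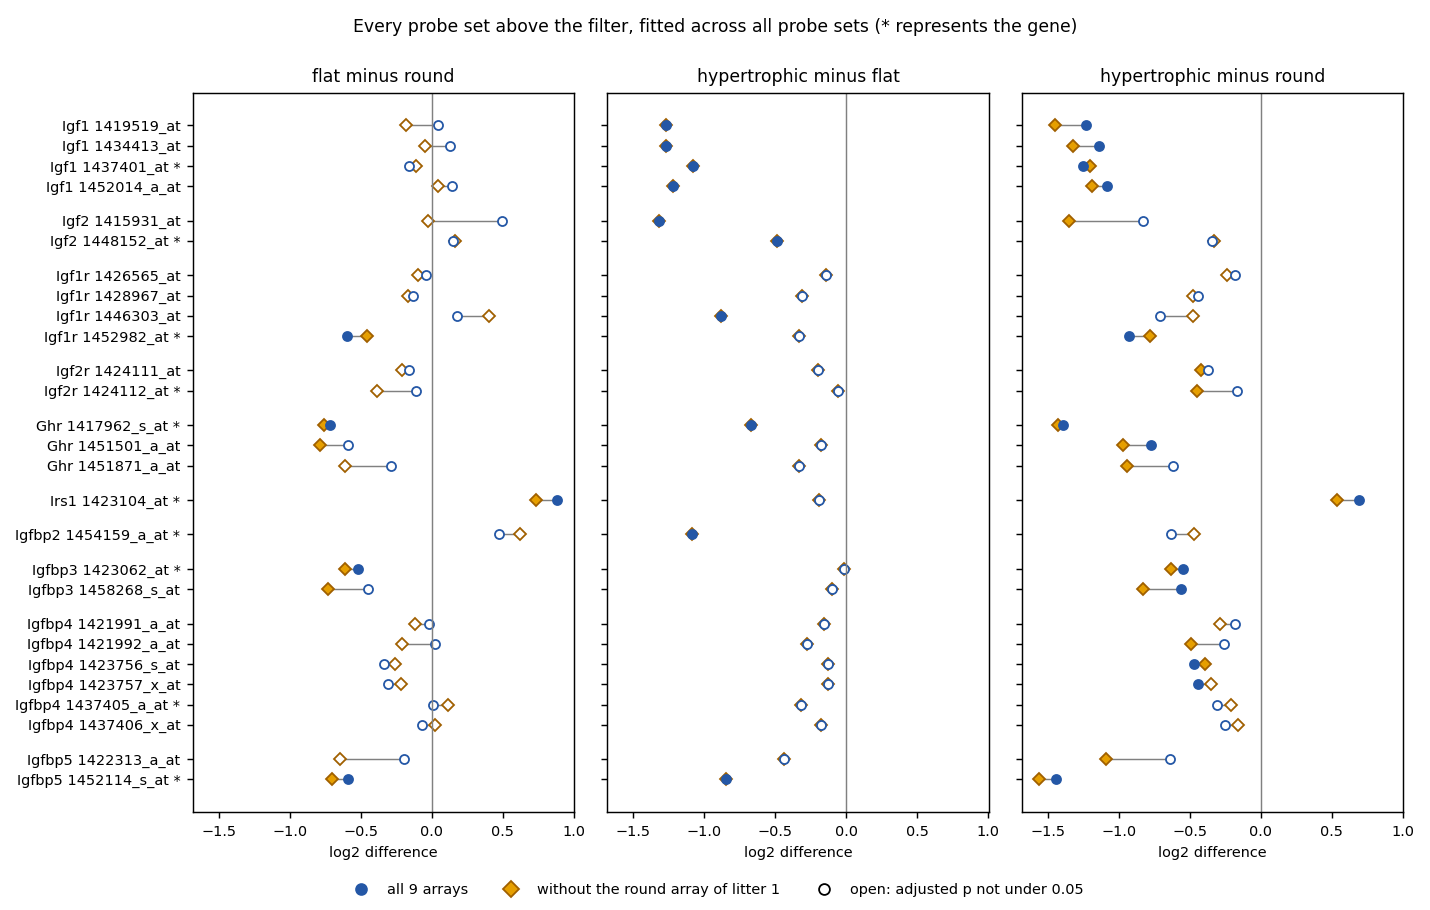
Log2 differences (horizontal axis) of the 27 probe sets above the filter, from a fit across all probe sets, with all 9 arrays (blue circles) and without the round array of litter 1 (orange diamonds). Open symbols did not pass and an asterisk marks the probe set that represents the gene. Every circle of the middle panel lies below 0, which held for 25 of 27 with median centring. That contrast uses no round array, so each diamond there lies at the value of its circle. Leaving out the round array of litter 1 moves the second probe sets of Igf2 and Igfbp5 furthest down in the contrasts with round.

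The layers differed in tissue other than cartilage. The summed signal of the 10 genes was 127968 to 137760 in the round arrays, 116515 to 137157 in the flat arrays and 90857 to 99398 in the hypertrophic arrays. Igf2 alone gave 53291 to 56238, 52851 to 68008 and 40968 to 45293 of these sums, and it did not pass hypertrophic minus round. The sum over 12 perichondrium, fibroblast and tendon markers was 217610 to 266336 in the round arrays, 163305 to 218944 in the flat arrays and 132580 to 149509 in the hypertrophic arrays. Col3a1, the brightest of them, had mean signals of 72808.9, 77550.5 and 58154.4 in the same order and passed in no contrast. Of these 12 markers, 7 were lower and 3 higher hypertrophic minus round, and 6 were lower and 1 higher hypertrophic minus flat. Among all tested genes 12.7% were lower and 12.4% higher hypertrophic minus round, and 5.22% and 6.12% hypertrophic minus flat. The part of perichondrium, fibroblast and tendon cells in the falls of Igf1, Ghr, Igfbp5 and the other members was not tested.

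Cartilage markers fell as well, with 6 of 8 lower hypertrophic minus round and summed signals of 99154 to 123200 (round), 66027 to 100590 (flat) and 68359 to 76317 (hypertrophic). Of all tested genes 12.7% were lower in that contrast. Osteoclast markers summed to between 5240 and 6521 in round arrays, 13100 and 18000 in flat arrays and 73997 and 98193 in hypertrophic arrays, and osteoblast markers to between 64545 and 90190, 72335 and 119369, and 116540 and 137223 in the same order. The osteoblast sums hold Col1a1, with mean signals of 72527.7, 77575.9 and 68815.7, which did not pass hypertrophic minus round (-0.06 ± 0.15, adjusted p = 0.815). In that contrast 6 of the 7 tested osteoblast markers were higher and 0 lower, beside 12.4% and 12.7% of all tested genes. Mean signals of Alpl, for example, were 598.3, 7429.8 and 11897.7. No marker of these lists was at 0 on any array. Their part in the differences was not tested.

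Skeletal muscle markers were highest in the flat layer, with sums between 159390 and 261683 in round arrays, 381486 and 627533 in flat arrays and 159513 and 381973 in hypertrophic arrays. All 18 were higher flat minus round, and 17 were lower hypertrophic minus flat, beside 8.39% and 5.22% of all tested genes. With the mean muscle marker value as a covariate, 1 member passed flat minus round by limma (Irs1, 1.35 ± 0.26, adjusted p = 0.0181). In the same fit 0 passed hypertrophic minus flat and 8 passed hypertrophic minus round. In these 3 contrasts 3.52%, 1.68% and 24.6% of all genes passed. At an unadjusted p under 0.05, 5 members passed hypertrophic minus flat, and the share of all genes at that p was not counted. The median SE of the members grew to 0.28 flat minus round and 0.22 hypertrophic minus flat, against 0.13 without the covariate. Igf1 hypertrophic minus flat was then -0.74 ± 0.23 (adjusted p = 0.134), Ghr -0.69 ± 0.23 (adjusted p = 0.166), Igfbp5 -0.87 ± 0.30 (adjusted p = 0.175) and Igf2 -0.45 ± 0.21 (adjusted p = 0.34). In the same contrast Igfbp2 was -0.47 ± 0.37 (adjusted p = 0.584), beside -1.09 without the covariate, and Igf2r was -0.78 ± 0.22 (adjusted p = 0.101), beside -0.06. Flat minus round, Igf2r was 0.87 ± 0.28 (adjusted p = 0.119), beside -0.11, and Igf1r flat minus round was -1.12 ± 0.29 (adjusted p = 0.0552). Between hypertrophic and round, 3 of the 18 muscle markers were higher and 0 lower, beside 12.4% and 12.7% of all tested genes. The mean muscle marker value was 12.20 to 13.08 in round, 12.33 to 13.89 in hypertrophic and 13.71 to 14.78 in flat arrays. In that contrast, with the covariate, Ghr (-1.38 ± 0.14) and Igfbp5 (-1.44 ± 0.18) kept their size, and Igf2r was 0.08, beside -0.17. The part of muscle cells in these differences was not tested.

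**Figure D4:**
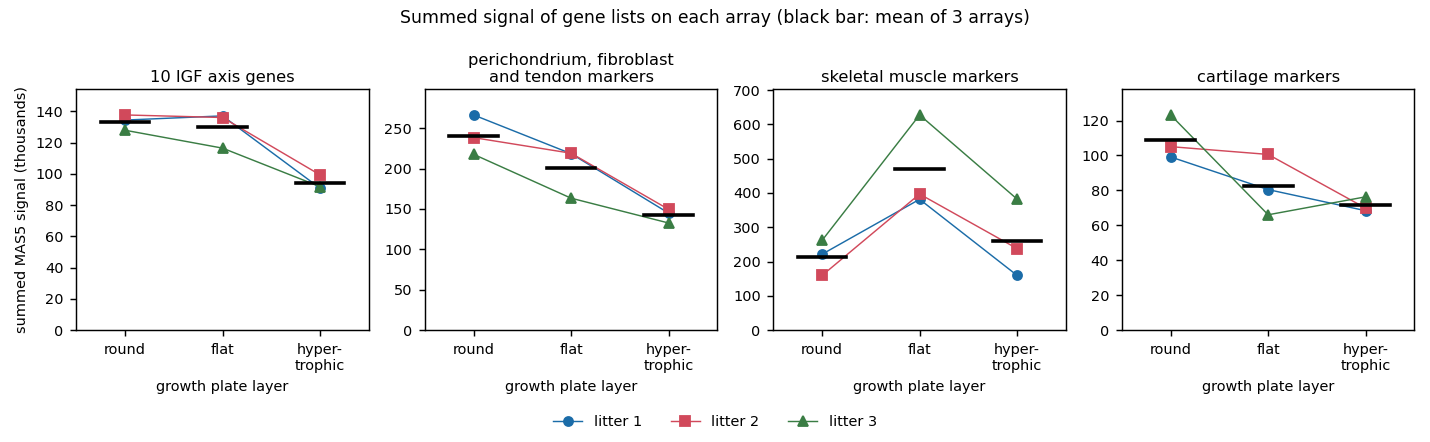
Summed MAS5 signal divided by 1000 (vertical axes, linear, from 0) of the 10 IGF axis genes and of 3 marker lists on each array, with litters as points and lines and black bars as means. The 10 genes and the perichondrium, fibroblast and tendon markers are both lowest in the 3 hypertrophic arrays, while muscle markers peak in the flat layer, with the flat array of litter 3 at 627533.

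With the round array of litter 1 left out together with the flat one of litter 3, members past the threshold numbered 5 in flat against round, 6 in hypertrophic against flat and 8 in hypertrophic against round cartilage, where 14.6%, 14.2% and 28.4% of all tested genes passed. Igfbp3 was then at -0.68 (adjusted p = 0.00186) and Igf2r at -0.50 (adjusted p = 0.0131) flat minus round. Igf2 was at -0.61 (adjusted p = 0.000384) and Igfbp4 at -0.42 (adjusted p = 0.00644) hypertrophic minus flat. Of the 16 member differences past the threshold, 7 kept their call in all 21 alternatives. They were Igf1, Igf1r, Ghr, Irs1, Igfbp3 and Igfbp5 hypertrophic minus round, and Irs1 flat minus round. Fits of single probe sets were not among the 21. In those fits, hypertrophic minus round, the other probe sets of Igf1r and Igfbp5 above the filter and 1 of Ghr did not pass. Those of Igf1 and Igfbp3 and 1 of Ghr did.

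The patterns of the members were compared with each other and with all other tested genes by Pearson's r of the log2 values over the 9 arrays, which share 3 layers and 3 litters, so r mostly describes shared layer steps. Between members the highest values were 0.92 for Igf1r with Ghr and 0.91 for Igf1 with Igfbp5. The lowest was -0.81 for Irs1 with Igf1r. The genes outside the axis most like Igf1 were Ogn, an extracellular matrix proteoglycan (r = 0.973), and Calml4 (0.967). For Ghr they were the proteoglycan Kera (0.986) and Esyt1 (0.985), and for Igfbp5 the hyaluronan receptor Lyve1 (0.973) and Camk1d (0.967).

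For Igf1r the nearest genes were the aminopeptidase Npepps (0.988) and the chromatin protein Hmga2 (0.98), and for Irs1 the nicotinic receptor subunit Chrna7 (0.984) and Nme4 (0.979). Igf2 was nearest to Gnas, an imprinted gene for a G protein subunit (0.962), and the lysyl oxidase Loxl1 (0.953). Igfbp3 was nearest to Plekhf1 (0.968) and Stard4 (0.959), and Igfbp2 to Utp6 (0.955) and Mustn1 (0.948). The size of the step differed even where r was high. Kera had mean log2 values of 12.66 (round), 10.77 (flat) and 9.10 (hypertrophic), a wider span than that of Ghr.

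Other binding proteins followed the same direction. Of 5 genes, Igfbp1, Igfbpl1 and the carrier subunit Igfals were below the filter. Igfbp7, a low-affinity relative, had mean signals of 19315 ± 3304 (SD, n = 3) in round cartilage, 10301 ± 2029 in flat cartilage and 7149 ± 423 in hypertrophic cartilage. It was lower in flat (-0.91 ± 0.16, adjusted p = 0.00169) and in hypertrophic (-1.42 ± 0.16, adjusted p = 3.68e-05) than in round. Igfbp6, which prefers Igf2, was lower in the same contrasts, at -0.61 ± 0.18 (adjusted p = 0.0365) and -1.09 ± 0.18 (adjusted p = 0.00083).

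The proteases that cut binding proteins, and their inhibitors, had the widest differences among the members and the 5 lists. Of 7 tested genes, 0 were higher and 4 lower flat minus round, 2 higher and 0 lower hypertrophic minus flat, and 2 higher and 3 lower hypertrophic minus round. Of all tested genes, 8.39% were higher and 8.64% lower flat minus round, 6.12% and 5.22% hypertrophic minus flat, and 12.4% and 12.7% hypertrophic minus round. The medians of the 7 genes were -0.75, -0.11 and -0.10. Pappa2, a metalloprotease that cuts Igfbp3 and Igfbp5, had signals of 1567, 2112 and 1867 in the round arrays, 409.4, 408.1 and 220.9 in the flat arrays, and 209.5, 288.7 and 97.9 in the hypertrophic arrays. The round arrays were far above the rest, at -2.37 ± 0.23 flat minus round (adjusted p = 3.59e-05) and -3.15 ± 0.23 hypertrophic minus round (adjusted p = 1.26e-06). Its relative Pappa, which cuts Igfbp4, turned in the hypertrophic layer: signals were 467.6, 486.6 and 382.5 in the round arrays, 344.1, 256.5 and 183.9 in the flat arrays, and 1205, 1091 and 632 in the hypertrophic arrays. Every hypertrophic array was above, and every flat array below, the round arrays.

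Pappa was lower in flat than in round (-0.75 ± 0.18, adjusted p = 0.0142), higher in hypertrophic than in flat (1.79 ± 0.18, adjusted p = 9.12e-05) and higher in hypertrophic than in round (1.04 ± 0.18, adjusted p = 0.00119). Stc1, a stanniocalcin, a family known to inhibit these metalloproteases, had mean signals of 2520.0 ± 450.4 in round cartilage, 574.8 ± 157.9 in flat cartilage and 467.3 ± 66.1 in hypertrophic cartilage (SD, n = 3). Its differences from round were -2.10 ± 0.15 in flat (adjusted p = 5.32e-06) and -2.36 ± 0.15 in hypertrophic cartilage (adjusted p = 4.13e-07). Htra1, a serine protease that cuts Igfbp5, differed by -1.66 ± 0.13 and -1.95 ± 0.13 in the same contrasts. Adam12, a metalloprotease that cuts Igfbp3 and Igfbp5, was higher in hypertrophic than in flat (0.69 ± 0.17, adjusted p = 0.0218).

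Of 24 tested genes of insulin and IGF signalling inside the cell, among the 26 named on the array, 5 passed in at least 1 contrast and 19 in none, where 32.7% of all tested genes passed in at least 1. Flat minus round 2 were higher and 0 lower, hypertrophic minus flat 1 was higher and 1 lower, and hypertrophic minus round 2 were higher and 2 lower. Grb2, the adaptor that leads to Ras, was higher in flat (0.60 ± 0.16, adjusted p = 0.0196) and in hypertrophic (0.73 ± 0.16, adjusted p = 0.00452) than in round. Irs2, the close relative of Irs1, had mean signals of 589.4 ± 16.5 (round), 409.2 ± 117.1 (flat) and 345.5 ± 61.8 (hypertrophic; SD, n = 3). It was lower in hypertrophic than in round (-0.74 ± 0.22, adjusted p = 0.0267), the contrast in which Irs1 was higher. Foxo3, a transcription factor that Akt inhibits, was lower there too (-0.73 ± 0.13, adjusted p = 0.00125). Grb14, an inhibitory adaptor, was higher in hypertrophic than in flat (0.58 ± 0.14, adjusted p = 0.0186).

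Of the 11 growth hormone signalling genes, 6 passed in at least 1 contrast and 5 in none, beside the same 32.7% of all genes. There were 0 higher and 1 lower flat minus round, 2 and 1 hypertrophic minus flat, and 2 and 2 hypertrophic minus round. Cish, a feedback inhibitor that the hormone's Stat5 induces, was lower in hypertrophic than in flat (-0.75 ± 0.20, adjusted p = 0.028) and than in round (-0.95 ± 0.20, adjusted p = 0.00366). Socs2, another such inhibitor, was lower in hypertrophic than in round (-0.59 ± 0.18, adjusted p = 0.0274). Socs3, a cytokine signalling inhibitor, was lower in flat than in round (-0.70 ± 0.20, adjusted p = 0.0296), and the phosphatase Ptpn6 was higher in hypertrophic than in round (0.77 ± 0.23, adjusted p = 0.0255). The phosphatase-binding membrane protein Sirpa (0.82 ± 0.14, adjusted p = 0.00227) and the phosphatase Ptpn1 (0.63 ± 0.13, adjusted p = 0.00877) were higher in hypertrophic than in flat. Beside Sirpa, the summed signal of 8 macrophage markers was 18613 to 22972 in the hypertrophic arrays, against 13436 to 15996 in the flat arrays, but the markers were split. Csf1r (1.07) and Cd68 (1.56) were higher hypertrophic minus flat, Mrc1 (-1.01) was lower, the other 5 did not pass, and the median of the 8 was -0.24. Their part was not tested.

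Imprinted growth genes moved in the same contrast as Igf2. Of 8 tested genes of Igf2 mRNA binding and imprinted growth control, 6 were lower and 0 higher hypertrophic minus flat (5 lower with median centring or with quantile normalization, tried after the data were seen), with a median of -0.52 beside 0 over all genes. Flat minus round 1 was higher and 0 lower, and hypertrophic minus round 0 were higher and 4 lower. Of all tested genes, 5.22% were lower hypertrophic minus flat, 8.39% higher flat minus round and 12.7% lower hypertrophic minus round. Differences were -1.11 ± 0.15 for Peg3, a zinc finger protein (adjusted p = 0.000554), -0.97 ± 0.16 for Dlk1, a Notch-like membrane protein (adjusted p = 0.00192), -0.74 ± 0.14 for the CDK inhibitor gene Cdkn1c (adjusted p = 0.00405) and -0.57 ± 0.12 for the zinc finger gene Plagl1 (adjusted p = 0.00956). Grb10, an imprinted adaptor that restrains Igf1r and also stands in the signalling list, was higher in flat than in round (0.48 ± 0.11, adjusted p = 0.00954).

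**Figure D5:**
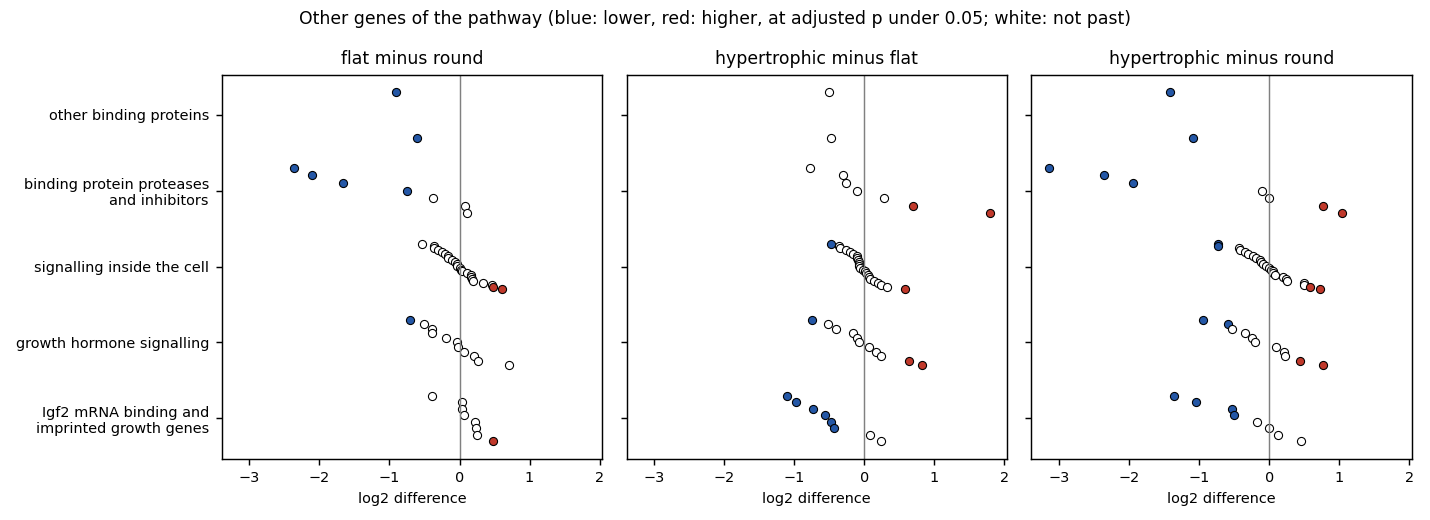
Log2 differences (horizontal axis) between layers of the tested genes in 5 lists of other axis genes, each point a gene, spread within its list by value. Blue points were lower and red points higher at an adjusted p under 0.05, and white points did not pass. The binding protein proteases and inhibitors span the widest range, with Pappa2 at -3.15 hypertrophic minus round and Pappa at 1.79 hypertrophic minus flat.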

How the data were processed

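The deposited values are MAS5 signal intensities of 45101 probe sets on 9 arrays, which the authors made by the MAS5 algorithm in Affymetrix Expression Console, per the submitters' processing notes. Versions are not given in the sources used here. All arrays share a trimmed mean of 500.003, so they came scaled. Probe sets were named from the platform annotation (34945 to 1 gene, 932 to several, 9160 unnamed, 64 controls), with 34741 matched to RefSeq by gene identifier.

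From the deposited intensity values, log2(signal + 26) was computed, 26 being the 20th percentile of all values, which understates folds of dim genes. The probe set with the highest mean represented a gene, and 11313 genes with a mean above 7.2123, the median of non-control probe sets, were tested. Limma 3.58.1 in R 4.3.3 fitted layer with litter as a fixed block and a mean-variance trend (residual df 4, prior df 8.15), with Benjamini-Hochberg adjustment over all tested genes within each contrast. The fit was tested on simulated data. Detection calls were not used.

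The labels say that each sample came from 1 litter and give each layer replicates 1 to 3. They do not state that equal numbers are the same litter. Deviations from layer means of arrays with the same number correlated across genes at 0.167 to 0.517 (Pearson's r, 9 pairs). The 18 pairs of different numbers gave -0.434 to 0.081. The deviations of a layer sum to 0, so these 2 ranges are not independent. The numbers were taken as litters, though these correlations cannot tell a litter from another shared batch. No 2 arrays were identical (0 pairs).

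The members and the gene lists were chosen with earlier results of these data known. All 10 members are named. Of each pathway list, genes past the threshold could be named, the largest difference first, at most 4 per contrast, and for likeness the 2 genes with the highest r. Alternatives changed the pseudocount, filter, scaling, block, variance trend, probe set rule, a muscle covariate and the arrays.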

Additional observations from a re-analysis of the deposited data

How the results depend on the processing

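Of the 711 values of single members recomputed under alternatives, 611 kept their direction and side of the threshold, 49 lost the threshold, 19 gained it and 32 turned sign, and 0 of the 21 alternatives that refit the gene turned the sign of a called member difference. Without the litter block (no replicate block), 935 genes passed flat minus round, 553 hypertrophic minus flat, 1824 hypertrophic minus round and 1789 by the F test, beside 1926, 1283, 2840 and 3208, and members were 4, 4, 6 and 7, beside 5, 5, 6 and 8; Igf2 hypertrophic minus flat and Igfbp5 flat minus round lost their calls, and no other member call changed in these 3 contrasts. With the mean of all probe sets of a gene, 2 members passed flat minus round (13.5% of 10266 genes), 3 passed hypertrophic minus flat (8.72%), and 7 members passed hypertrophic minus round (20.3%). With muscle markers as a covariate these were 1 and 0 (398 and 190 of all genes). With probe sets counted, 10 of 27 passed hypertrophic minus flat, 13 hypertrophic minus round and 15 by the F test. Of all 19624 fitted probe sets, 7.94% passed hypertrophic minus flat and 21.0% hypertrophic minus round. No such share is given here for the F test. Leaving out 1 array gave 2 to 6 members and 1225 to 1956 genes flat minus round, 3 to 5 members and 591 to 1658 genes hypertrophic minus flat, 6 to 7 members and 1770 to 2924 genes hypertrophic minus round, and 7 to 9 members and 2283 to 3312 genes by the F test. The lowest member counts came without the round array of litter 2 (2, flat minus round) and the hypertrophic array of litter 1 (3, hypertrophic minus flat).

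Sign changes concerned differences that did not pass, except that 1 probe set of Igf1r, not the one that represents it, was at 0.18 flat minus round. Flat minus round, Igfbp4 was -0.04 with median centring, -0.02 with quantile normalization, -0.12 with the mean of probe sets, -0.34 with the muscle covariate, -0.07 to 0.11 with 1 array left out, and -0.02, -0.34, -0.31 and -0.07 in 4 other probe sets. In that contrast Igf2 was 0.00 with quantile normalization, Igf1 0.04 with the mean of probe sets and 0.04, 0.13 and 0.14 in 3 other probe sets, Igfbp2 -0.37 with the muscle covariate and Igf2r 0.87 with that covariate and -0.39 to 0.06 with 1 array left out. Hypertrophic minus flat, Igf2r was 0.02 with median centring, -0.25 to 0.05 with 1 array left out and 0.03 without the pair of arrays, round of litter 1 and flat of litter 3. Igfbp3 was 0.05, -0.12 to 0.04 and 0.03 under the same settings, and Igf1r 0.06 with the muscle covariate. Hypertrophic minus round, Igf2r was 0.08 with that covariate and -0.45 to 0.01 with 1 array left out. The cause of these changes was not tested. There were 3 litters, and with MAS5 signals no depth of counting applies. The largest standard errors of member probe sets were 0.32 for the dimmer Igfbp5 probe set and 0.29 for the dimmest of Ghr and the second of Igf2. That Igf2 probe set had signals of 1507 to 5017, so large standard errors were not confined to dim probe sets.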
